A study of Homo sapiens with 3 samples.

Results

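The cytosolic ribosomal protein genes encode the proteins that, with the ribosomal RNAs, make up the large and the small subunit of the ribosome in the cytoplasm. They were chosen by gene symbol: RPL or RPS followed by a number and, where present, the ending A, X, L or L1, together with RPLP0, RPLP1, RPLP2 and RPSA. The rule gave 73 of the 25247 symbols in the files, 45 of the large and 28 of the small subunit, held in 79 rows. RPS18 stood in 6 rows, 5 of them at 0, and rows of one symbol were summed.

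RNA was sequenced from OCI-AML2 R50, a culture of OCI-AML2, an established human line of acute myeloid leukaemia (AML), grown in 15% serum with 50 µM cytarabine (Ara-C), the nucleoside analogue of AML chemotherapy. Cytarabine was thus present in both groups. The control group was 1 library, and the romidepsin group was 2 libraries taken after 18 h of romidepsin, an inhibitor of class I histone deacetylases. The dose, and whether the romidepsin libraries came from separate cultures, are not stated in the labels; the p-values therefore cover the spread of these libraries alone, and that spread may be technical.

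Cells keep the ribosomal proteins in near-equal amounts, and the genes are transcribed at high rates in growing cells, where MYC is among the factors that raise ribosome production. Their transcripts usually start with a C followed by a run of pyrimidines, the terminal oligopyrimidine (TOP) motif, through which mTOR signalling and LARP1 control translation. Many of the genes have left processed pseudogenes in the human genome, and several have a paralogue whose name ends in L or L1.

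The files give FPKM, fragments per kilobase of gene model scaled to the mapped fragments of the library. FPKM over all rows summed to 790922 in the control, against 668773 and 657213 in the romidepsin libraries. The files hold no counts, so the depth behind each value is known only roughly: steps between low values put it near 18.7 to 21.6 M fragments for the control and 21.25 to 26.2 M for the romidepsin libraries. Myeloid markers fitted the label of the cells: PTPRC, MPO, CD33, SPI1, ELANE, CTSG, CEBPA and CD68 were all at 28 FPKM or more in every library. Their summed level was 3337 FPKM in the control against 1698 and 1672 FPKM after romidepsin, with CTSG going from 1422 to 468 and 461 FPKM. In the test described below, 5 of the 8 fell, while PTPRC, CEBPA and CD68 rose. Of all tested genes, 41.8% fell and 34.7% rose. Of the 16 markers of lymphoid, erythroid, epithelial and fibroblast cells, none passed 1 FPKM in the control; the lymphoid sum went from 1.06 to 3.07 and 3.03 FPKM, the epithelial and fibroblast sum from 0.583 to 6.14 and 6.16 FPKM, and the defining genes MS4A1, HBB, EPCAM and COL1A2 were listed at 0 throughout. COL1A1 went from 0.0275 FPKM to 2.30 and 2.54 FPKM, and PDGFRB from 0.555 to 3.82 and 3.54 FPKM; their part in the results was not tested.

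Ribosomal protein transcripts were lower after romidepsin across nearly the whole set, by a similar and modest amount. Of the 71 that reached 1 FPKM in at least 1 library, 67 (94.4%) fell, RPL39L rose, and 3, among them RPS27 and RPS28, did not pass the test (limma with Benjamini-Hochberg adjustment over 11708 genes, threshold 0.05). Over all genes tested, 41.8% fell and 34.7% rose. All 71 were above 1 FPKM in every library, so the filter did not fix their direction. Both romidepsin libraries were below the control for 67 of them, beside 51.4% of all tested genes. The median log2 fold change of these 71 genes was -0.39 on the log2(FPKM + 1) scale, beside -0.05 for all tested genes. In bulk RNA, fewer cells of a type and less RNA per cell cannot be told apart.

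The fall was within the range of other abundant transcripts, while its spread between genes was narrow. Among the 801 other genes with a mean of at least 100 FPKM, 570 fell (71.2%) and 162 rose, with a median of -0.31. The quartiles of the ribosomal protein genes were -0.47 and -0.31, an interquartile range of 0.16, against 0.50 for those 801 genes and 0.76 for all tested genes. On the log2(FPKM + 1) scale, 7 of the 71 genes (9.86%) lay at least 1.5-fold below the control in each romidepsin library, beside 13.1% of all tested genes. On that scale none was at least 2-fold lower in both, beside 3.08% of all tested genes, although RPS26 was 2.17-fold lower by its mean FPKM.

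The size of the fall depended on how the libraries were scaled, and for part of the genes so did the call. With each library scaled to the same summed FPKM (equal-sum scaling), the median of all tested genes moved from -0.05 to 0.16 and that of the ribosomal protein genes from -0.39 to -0.15. In that scaling 46 fell and RPL39L rose, where 26.2% of all tested genes fell and 48.7% rose. With quantile normalization 35 fell and 9 rose (37.5% and 31.7% of all tested genes), with a median of -0.09 beside -0.05 for all genes. Of the 801 other abundant genes, 377 fell and 269 rose with equal-sum scaling (median -0.07), and 333 fell and 299 rose with quantile normalization (median -0.02). The test takes the spread of the single control to equal that of the romidepsin libraries, and a difference between cultures cannot be told apart from that of romidepsin.

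**Figure D1:**
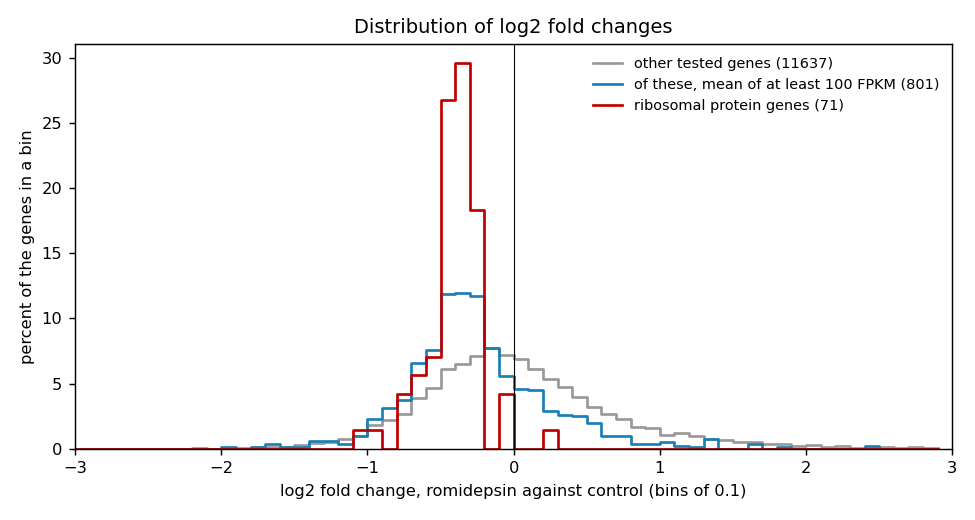
Log2 fold change on the log2(FPKM + 1) scale (horizontal axis, bins of 0.1) against the percent of genes in each bin, for the 71 tested ribosomal protein genes (red), the 801 other genes with a mean of at least 100 FPKM (blue) and the 11637 other tested genes (grey). The red outline is narrow and centred near -0.39, within the broader blue outline centred near -0.31.

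As a share of the summed FPKM of all named genes, the 73 genes took 23.0% in the control, against 21.1% and 20.9% in the romidepsin libraries. In FPKM their sum was 140981 in the control, against 109800 and 108187 in the romidepsin libraries. The romidepsin libraries lay close together and both below the control, a mean difference in share of -1.98 percentage points. With 1 library against 2, an exact permutation test cannot give a p under 0.333, so none is given.

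The start sites of the genes shared a letter pattern that the rule for choosing them did not use. RefSeq promoter windows (GRCh38.p14, from 250 bases before to 50 after the annotated start) were matched by symbol for 56 of the 73 genes. A C at the start site followed by at least 4 pyrimidines was found for 39 of these 56 (69.6%), beside 5.14% of all symbols in that table. The windows below run from 60 bases before the start to the base at position 20, 5′ to 3′ on the gene's own strand. They show 5 genes with a TOP-like start (RPLP0, RPS12, RPL35A, RPL37A and RPL22), then 3 paralogues that differ in it. Capitals mark the pyrimidine run that begins within 10 bases of the start, the ETS family core CCGGAAG and the TATA box TATAAA, both searched on either strand.
RPLP0 (chr12:120201092-120201171, minus strand): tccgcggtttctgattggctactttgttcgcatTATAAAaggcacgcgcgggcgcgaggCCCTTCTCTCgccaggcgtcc
RPS12 (chr6:132814509-132814588, plus strand): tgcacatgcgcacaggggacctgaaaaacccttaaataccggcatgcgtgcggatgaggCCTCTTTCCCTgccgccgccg
RPL35A (chr3:197950130-197950209, plus strand): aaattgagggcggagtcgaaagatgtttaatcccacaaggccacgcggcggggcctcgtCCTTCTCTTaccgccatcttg
RPL37A (chr2:216498784-216498863, plus strand): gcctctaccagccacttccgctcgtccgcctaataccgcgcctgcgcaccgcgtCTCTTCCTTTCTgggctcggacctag
RPL22 (chr1:6199576-6199655, minus strand): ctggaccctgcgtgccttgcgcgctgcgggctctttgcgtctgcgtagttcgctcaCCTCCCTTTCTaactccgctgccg
RPL22L1 (chr3:170870176-170870255, minus strand): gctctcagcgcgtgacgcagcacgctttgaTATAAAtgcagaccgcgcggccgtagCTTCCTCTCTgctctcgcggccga
RPL7L1 (chr6:42879556-42879635, plus strand): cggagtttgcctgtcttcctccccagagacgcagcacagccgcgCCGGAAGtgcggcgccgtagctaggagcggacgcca
RPS27L (chr15:63157458-63157537, minus strand): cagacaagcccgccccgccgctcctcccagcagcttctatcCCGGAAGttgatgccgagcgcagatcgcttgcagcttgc

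RPL22L1 shared the pyrimidine run with its parent gene RPL22, while RPL7L1 and RPS27L held none within 10 bases of the start. In the full windows of 300 bases, the ETS core was found for 20 of the 56 genes (35.7%), beside 12.2% of all symbols. The YY1 core AAGATGG was found for 7 of 56 (12.5% beside 7.11%), the GC box GGGCGG for 32 (57.1% beside 48.3%), the E-box CACGTG for 5 (8.93% beside 8.77%) and the TATA box for 6 (10.7% beside 14.0%). No motif contains another, though the ETS and YY1 letters can share AAG, and a match describes the window only. The median GC content was 60.3% in the windows of the ribosomal protein genes and 58.7% in all windows.

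Split by a C exactly at the annotated start, the ribosomal protein genes differed little in the size of their fall. The 39 tested genes with this TOP-like start had a median of -0.39, with 38 lower. The 16 without it had a median of -0.42, with 15 lower. The median levels of these groups were 1639 and 408 FPKM. Within 10 bases of the start, the run was found for 48 of the 56 genes (85.7%), beside 38.4% of all symbols. Some of the 16 therefore held it nearby. Among the 78 other genes of at least 100 FPKM with a TOP-like start, 63 fell (80.8%), with a median of -0.37. Among the 480 such genes without it, 327 fell (68.1%), with a median of -0.28. These counts are of the values as deposited, and the differences were not tested.

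The levels of the genes spanned a wide range. Of the 73 genes, 41 had a mean over the 3 libraries of at least 1000 FPKM, 15 lay between 100 and 1000 FPKM, and 17 were under 100 FPKM. RPS2, a small-subunit protein near the entry of the mRNA channel, was the highest at 7762 FPKM in the control, against 7123 and 6111 FPKM after romidepsin. Both romidepsin values were below the control, but they lay 0.22 apart on the log2 scale, about as far as the fall itself (log2 fold change -0.23 ± 0.08, SE; adjusted p = 0.0276). In equal-sum scaling the RPS2 difference was 0.01 (adjusted p = 0.944). The call of RPS2 was also lost with no filter (adjusted p = 0.286) and without limma's mean-variance trend (adjusted p = 0.124).

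RPL37A, a zinc-binding protein of the large subunit, stood at 6301 FPKM in the control, against 5109 and 5113 FPKM after romidepsin. RPS29, a small zinc-binding protein of the small subunit, went from 6426 to 4695 and 4720 FPKM. RPS18 went from 5835 to 4433 and 4643 FPKM. In each of these 3 genes the romidepsin pair was close together and apart from the control, at log2 fold changes of -0.30, -0.45 and -0.36. RPS12 fell less, from 4256 to 3687 and 3595 FPKM, and RPL35A fell from 4334 to 3265 and 3258 FPKM. RPS12 and RPL37A changed direction with quantile normalization, to 0.20 and 0.09.

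**Figure D2:**
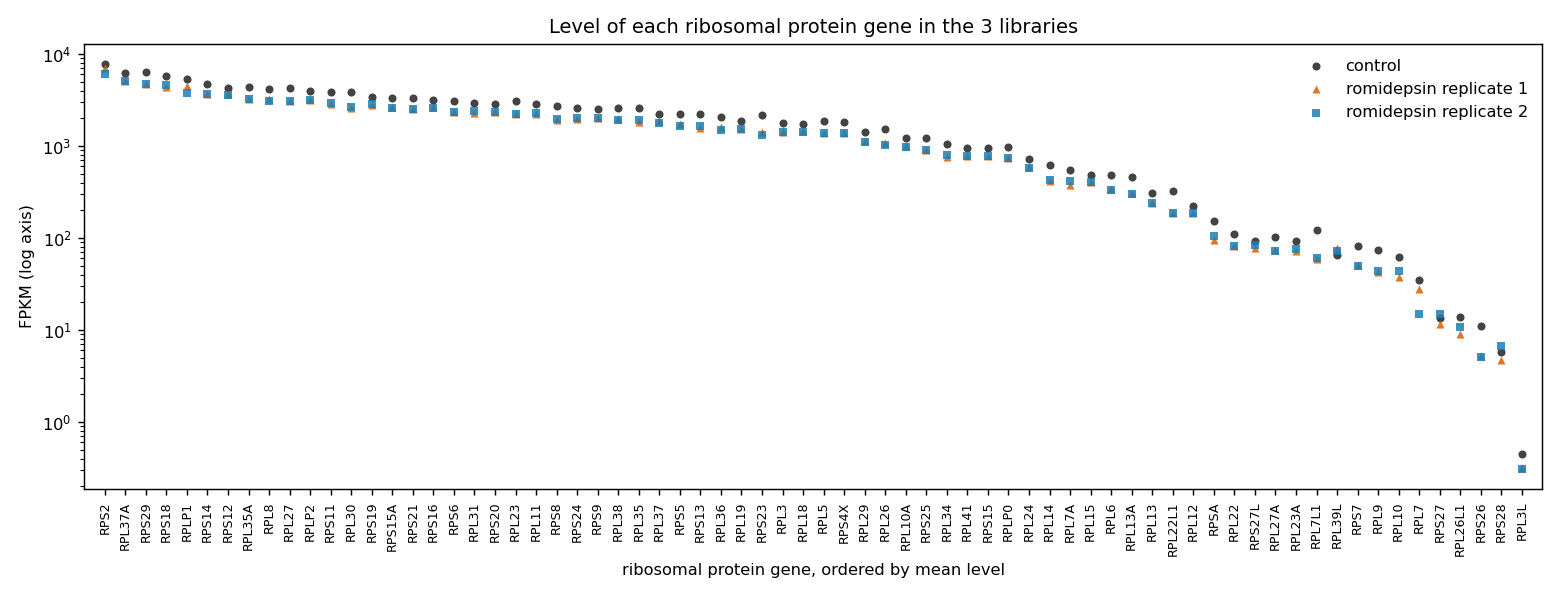
FPKM of each ribosomal protein gene (log axis) in the control (circles) and the romidepsin libraries (triangles and squares), ordered by mean level; RPL10L, listed at 0 in every library, and 2 other genes are not drawn. The control lies above both romidepsin libraries along nearly the whole row, from RPS2 at 7762 FPKM down to RPS26 at 11.2 FPKM.

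Leaving out the paralogues named L or L1, all 39 large-subunit genes fell, with a median of -0.41. Of the 27 small-subunit genes, 24 fell and 3 did not pass the test, with a median of -0.39. With equal-sum scaling 27 large-subunit and 17 small-subunit genes fell. With quantile normalization 20 and 12 fell, and 5 and 3 rose. Over all tested genes, 41.8% fell as deposited and 26.2% with equal-sum scaling. With quantile normalization 37.5% of all tested genes fell and 31.7% rose. The difference between subunits was not tested. The 21 genes with a small nucleolar RNA inside their borders in GENCODE 29 had a median of -0.42, and the 50 tested genes without one had -0.39.

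The stalk of the large subunit, which recruits translation factors, is made of RPLP0, RPLP1 and RPLP2, and all 3 genes fell. RPLP0 stood at 973 FPKM in the control, against 745 and 737 FPKM after romidepsin (log2 fold change -0.39, adjusted p = 1.88e-05). RPLP2 stood at 3953 FPKM in the control, against 3174 and 3139 FPKM after romidepsin. For RPLP1, at 5342 FPKM in the control, the romidepsin libraries were 4529 and 3807 FPKM, 0.25 apart on the log2 scale. The call of RPLP1 was lost with equal-sum scaling (adjusted p = 0.261), with no filter (adjusted p = 0.180) and without limma's mean-variance trend (adjusted p = 0.0563). With quantile normalization RPLP1 and RPLP2 were 0.07 and 0.05 higher.

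RPL5 and RPL11 join the large subunit together with the smallest ribosomal RNA, and outside the ribosome they bind MDM2, the ubiquitin ligase of p53. RPL5 fell from 1850 to 1397 and 1374 FPKM, and RPL11 from 2858 to 2211 and 2314 FPKM. Their falls of 0.42 and 0.34 on the log2 scale lay close to the median of the set. The call of RPL11 was lost with equal-sum scaling (adjusted p = 0.0615).

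Diamond-Blackfan anaemia is an inherited failure of red cell production caused mostly by mutation of ribosomal protein genes. Of 17 such genes measured alone in a row, 14 fell and none rose, with a median of -0.40, and 3, among them RPS27 and RPS28, did not pass the test, where 41.8% of all tested genes fell. Of the whole tested set of ribosomal protein genes, 94.4% fell. With equal-sum scaling 10 of the 17 fell, beside 26.2% of all tested genes. With quantile normalization 11 fell and 2 rose, beside 37.5% and 31.7% of all tested genes. RPS19, the gene most often mutated in that disease, fell from 3390 to 2821 and 2847 FPKM, a log2 fold change of -0.26 that became -0.02 with equal-sum scaling (adjusted p = 0.617). It was 0.05 higher with quantile normalization. RPS14, the gene lost in the 5q- syndrome of the marrow, fell from 4778 to 3670 and 3639 FPKM. RPS6, the phosphorylation target of S6 kinase, fell from 3108 to 2361 and 2373 FPKM and sat at the median of the set. RPSA, which also acts as a laminin receptor, fell from 153 to 96.2 and 104 FPKM.

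Of 6 measured small-subunit genes along the mRNA path, 5 fell, and RPS28 did not pass the test; 4 fell with equal-sum scaling and 2 with quantile normalization. RPS23, at the decoding centre, fell from 2176 to 1421 and 1321 FPKM, a log2 fold change of -0.67. Of 5 measured genes around the exit tunnel of the nascent protein, all fell, with a median of -0.33, and 3 fell in either other scaling. RPL26 there fell from 1530 to 1075 and 1032 FPKM. Over all tested genes, 41.8% fell as deposited, 26.2% with equal-sum scaling and 37.5% with quantile normalization. Whether these small groups differ from those shares was not tested.

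The largest falls were those of RPL7L1, RPS26, RPL22L1, RPL7, RPL9 and RPS7, which ranged from -1.01 to -0.68. The levels of RPL7L1, RPS26, RPL7, RPL9 and RPS7 are uncertain, since how reads shared with pseudogenes were counted is not stated. RPL7L1, a paralogue of RPL7 that is counted among ribosome assembly factors, had 121 FPKM in the control, against 58.5 and 61.0 FPKM after romidepsin. It was 2.03-fold lower by the mean, with an adjusted p of 1e-06. RPS26, at the mRNA exit of the small subunit, had 11.2 FPKM in the control, against 5.19 and 5.09 FPKM after romidepsin. That level was far below those of most small-subunit genes.

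RPL9 fell from 73.2 to 42.2 and 43.9 FPKM and RPS7, another binder of MDM2, from 81.1 to 50.8 and 49.9 FPKM. In both genes the romidepsin libraries were close together and well below the control. RPL7 had 35.3 FPKM in the control, against 27.8 and 15.0 FPKM after romidepsin, so the romidepsin libraries were 0.85 apart on the log2 scale. Its call (adjusted p = 0.0397) was lost with equal-sum scaling (adjusted p = 0.157) and with quantile normalization (adjusted p = 0.203). The call was also lost with no filter (adjusted p = 0.322) and without limma's mean-variance trend (adjusted p = 0.143). RPL13A and RPS23 completed the 7 genes that were at least 1.5-fold lower in both libraries; RPL13A fell from 465 to 305 and 303 FPKM.

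For RPS27 and RPS28, which did not pass the test, the romidepsin libraries lay on both sides of the control. RPS27 had 13.4 FPKM in the control, against 11.7 and 15.0 FPKM after romidepsin, and RPS28 had 5.83, 4.77 and 6.73 FPKM. Across the 73 genes, the romidepsin libraries were more than 0.2 apart on the log2 scale in 7, among them RPL26L1, RPL7, RPLP1, RPS2, RPS27 and RPS28. The median gap was 0.03 over the tested genes.

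**Figure D3:**
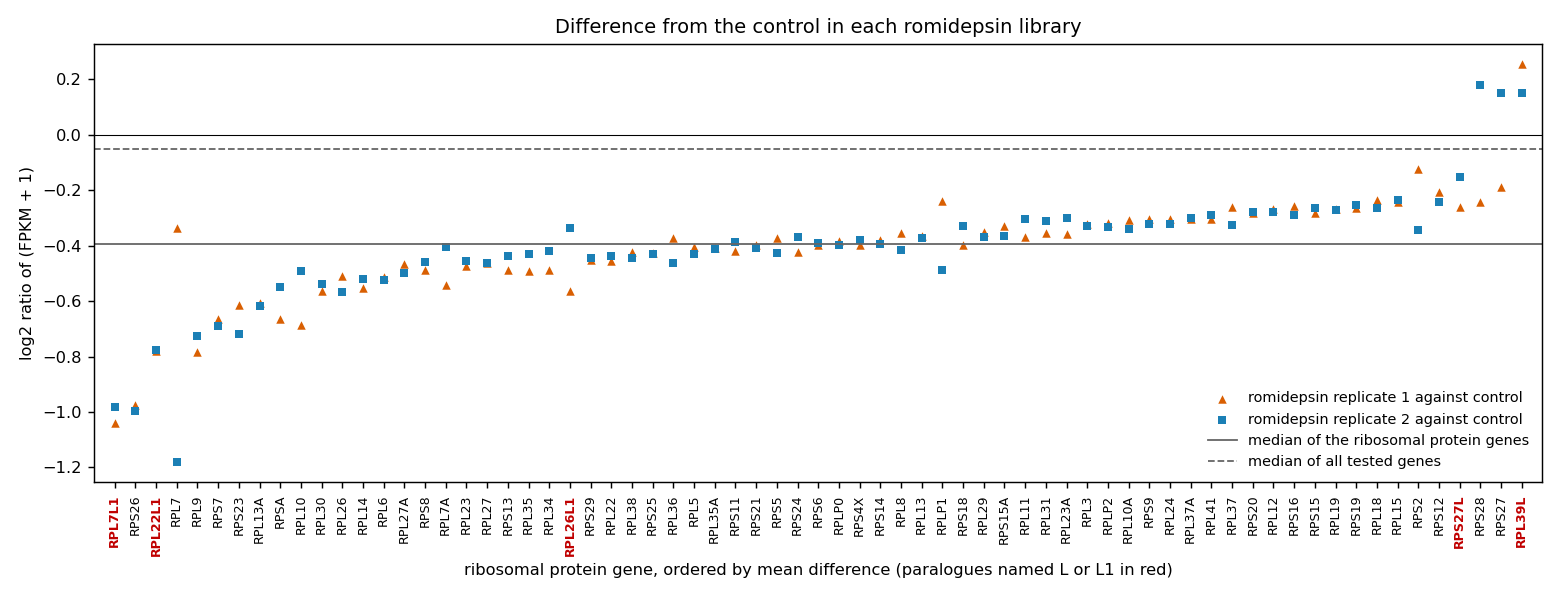
Log2 ratio of FPKM + 1 of each romidepsin library to the control (vertical axis) for the 71 tested genes except 2, ordered by their mean difference; paralogues named L or L1 have red labels, the solid line is the median of these genes (-0.39) and the dashed line that of all tested genes (-0.05). Most pairs of points lie together near the solid line, with RPL7L1 at -1.01 and RPL39L at 0.20 at the ends and RPL7 split between the libraries.

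Of the 7 paralogues named L or L1, RPL10L was listed at 0 in every library and RPL3L, a gene of heart and skeletal muscle, stayed under 1 FPKM (0.449, 0.313 and 0.309 FPKM), so neither was tested. The other 5 ranged from -1.01 to 0.20, with an interquartile range of 0.57 against 0.15 for the 66 genes without such an ending; this difference was not tested. Of these 5, 4 had means under 100 FPKM, and the 15 tested genes under that level had an interquartile range of 0.45. RPL39L, a paralogue of RPL39 known from testis and from some tumours, had 65.2 FPKM in the control, against 78.1 and 72.5 FPKM after romidepsin (adjusted p = 0.0069). RPL39L was higher than the control in both libraries, and 0.44 higher with equal-sum scaling (adjusted p = 0.000329), though its call was lost with no filter (adjusted p = 0.113) and without limma's mean-variance trend (adjusted p = 0.0539).

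RPL22L1 fell from 323 to 187 and 188 FPKM, and its parent RPL22, an RNA-binding protein of the large subunit, from 111 to 80.9 and 81.9 FPKM. The level of RPL22L1 relative to RPL22 was 2.90 in the control, against 2.32 and 2.30 in the romidepsin libraries, a ratio within each library that scaling between libraries does not touch. RPL39L relative to RPL39, which was read in a row joined with a small nucleolar RNA, went the other way, from 0.355 to 0.559 and 0.474. RPS27L, a target of p53, had 93.2 FPKM in the control, against 77.7 and 83.7 FPKM after romidepsin. Its fall of 0.21 became a difference of 0.03 in the other direction with equal-sum scaling (adjusted p = 0.602) and with quantile normalization (adjusted p = 0.647).

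RPL26L1 had 13.9 FPKM in the control, against 9.08 and 10.8 FPKM after romidepsin, or 0.909%, 0.844% and 1.05% of the level of RPL26. The ratio of RPL7L1 to RPL7 was 3.44 in the control, against 2.11 and 4.07 after romidepsin, and that of RPS27L to RPS27 was 6.94, 6.65 and 5.56. Those 2 ratios rest on low and scattered values of the parents RPL7 and RPS27. RPL10, the parent of RPL10L, fell from 61.5 to 37.8 and 43.5 FPKM, and RPL3, the parent of RPL3L, from 1792 to 1434 and 1425 FPKM.

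**Figure D4:**
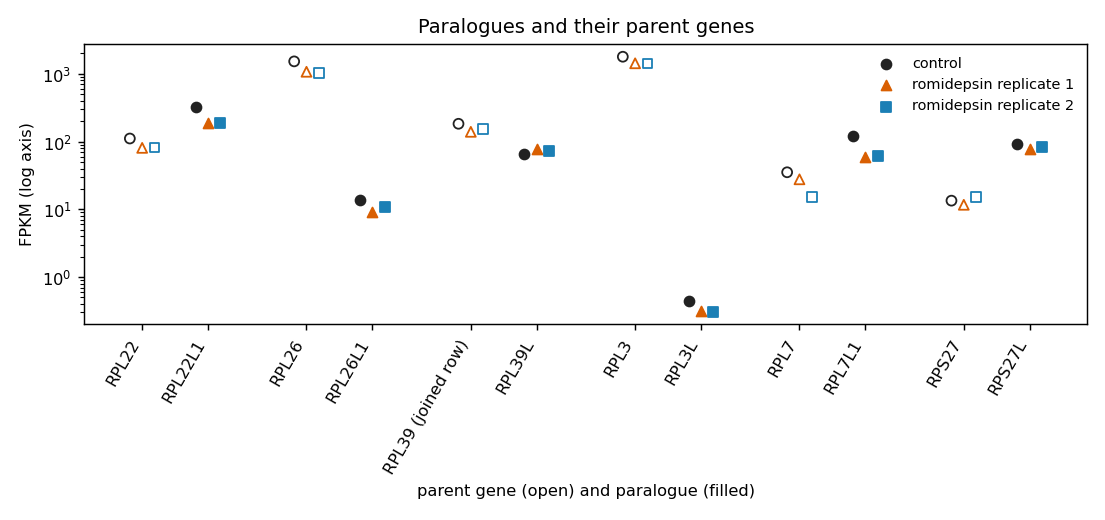
FPKM (log axis) of 6 parent genes (open symbols) and their paralogues (filled symbols) in the control (circles) and the romidepsin libraries (triangles and squares). RPL22L1 lies above RPL22 and falls from 323 to 188 FPKM, while RPL39L is the paralogue that is higher after romidepsin.

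Departures from the common fall were tested by shifting each romidepsin library by the median difference of the 66 genes that are no L or L1 paralogues; this fit was chosen after seeing the data. A call then means that a gene differs from the typical ribosomal protein gene. Of the 71 genes, 41 were not called, 13 were below the set and 17 above it, where 16.4% and 63.2% of all tested genes were. Of the 66 genes, 56 lay within 0.2 of their own median on the log2 scale and 40 within 0.1.

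RPL7L1 was 0.62 below the set (adjusted p = 3.01e-05), and its difference in this fit was -0.62. RPL22L1 had a difference of -0.39 (adjusted p = 5.99e-05), RPS26 of -0.59 (adjusted p = 0.000226), RPL9 of -0.36 (adjusted p = 0.000369), RPS7 of -0.28 (adjusted p = 0.000524), RPS23 of -0.27 (adjusted p = 0.00165) and RPSA of -0.21 (adjusted p = 0.0104). RPL13A, at -0.22 (adjusted p = 0.000675), was also below the set. Among the 17 genes above the set were RPL39L by 0.60 (adjusted p = 6.88e-05) and RPS27 by 0.38 (adjusted p = 0.0373). Others were RPS12 by 0.17 (adjusted p = 0.00269), RPS19 by 0.13 (adjusted p = 0.00593) and RPS27L by 0.19 (adjusted p = 0.0159). The romidepsin values of RPS27 lay on both sides of the control. The call of RPSA was lost without the trend (adjusted p = 0.0595), as were those of RPS19 (0.0679) and RPS27L (0.0745), the last also with quantile normalization (adjusted p = 0.0848). The unstated counting of reads shared with pseudogenes also leaves the levels of RPS26, RPL9, RPS7 and RPSA uncertain. The same holds for RPL7L1, RPS12, RPS23, RPS27 and RPL13A, after which GENCODE 29 names 12, 15, 10, 15 and 10 pseudogenes.

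Low levels and high numbers of pseudogenes went together in part of the set. GENCODE 29 names 91 pseudogenes after RPL23A, 74 after RPSA and 61 after RPL7, and these genes had means of 80.5, 118 and 26.0 FPKM. The 29 genes with 0 to 5 such pseudogenes had a median level of 2181 FPKM, with 2 of them under 100 FPKM. The 18 genes with 6 to 15 pseudogenes had 1595 FPKM, with 3 under 100 FPKM, and the 19 genes with 16 or more had 874 FPKM, with 6 under 100 FPKM. Over the 66 genes that are no L or L1 paralogues, the log2 level and the number of pseudogenes had a Pearson r of -0.36 and a Spearman rho of -0.29. These are points of the same 3 libraries, and their reads depend on the same counting.

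The files do not say how reads that match a gene and its pseudogenes were counted. The levels of RPL23A, RPSA, RPL7, RPL10, RPS26, RPS27, RPL9, RPS7, RPL7L1, RPS12, RPS23 and RPL13A are therefore uncertain. RPS29, with 32 pseudogenes, and RPS2, with 20, were among the highest genes. With the values as deposited the 41 genes of at least 1000 FPKM all fell, with an interquartile range of 0.10 around a median of -0.39. With equal-sum scaling 29 of them fell, and with quantile normalization 19 fell and 5 rose. Of the 31 genes outside the set at that level, 22 fell and 8 rose as deposited. With equal-sum scaling 14 of these 31 fell and 10 rose, and with quantile normalization 11 fell and 13 rose. The 15 tested genes under 100 FPKM had an interquartile range of 0.45 around a median of -0.47, with 12 lower and RPL39L higher.

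**Figure D5:**
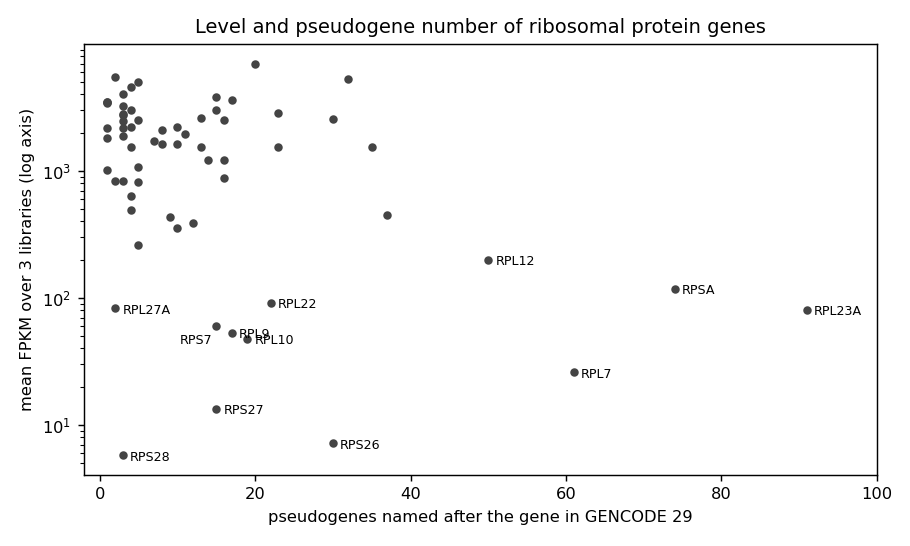
Mean FPKM over the 3 libraries (log axis) against the number of pseudogenes named after the gene in GENCODE 29, for the 66 ribosomal protein genes that are no L or L1 paralogues, 2 of them not drawn. Genes under 100 FPKM are labelled; they lie at pseudogene numbers from 2 (RPL27A) to 91 (RPL23A).

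The remaining ribosomal protein genes stood in rows joined with other genes or had other names. In 11 joined rows, 10 were lower than the control in both romidepsin libraries, with log2 ratios between -0.23 and -1.12. Of all tested genes, 51.4% were lower in both. RPS27A, which encodes a ribosomal protein fused to ubiquitin, had 248 FPKM in its joined row in the control, against 169 and 164 FPKM after romidepsin. The row of RPL36A and HNRNPH2 had 83.2 FPKM in the control, against 86.6 and 86.0 FPKM after romidepsin. FAU, which encodes RPS30 fused to a ubiquitin-like protein, fell from 1245 to 885 and 819 FPKM, and GNB2L1, which encodes the ribosomal scaffold protein RACK1, from 1719 to 1254 and 1228 FPKM. RPL36AL also fell, by 0.22, a call that was lost with equal-sum scaling (adjusted p = 0.506).

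Counts for other genes of the pathway stand beside 41.8% of all tested genes lower and 34.7% higher as deposited, and 26.2% and 48.7% with equal-sum scaling. With quantile normalization those shares were 37.5% and 31.7%. Of 14 other TOP transcripts, 13 fell and 1 rose, with a median of -0.43. With equal-sum scaling 9 fell and 1 rose, and with quantile normalization 7 fell and 1 rose, with a median of -0.07. NPM1, a nucleolar chaperone, fell from 886 to 505 and 520 FPKM, EIF4B, an initiation factor, had a log2 fold change of -0.71, and VIM, which encodes vimentin, rose from 308 to 422 and 395 FPKM. Of 18 escorts of ribosomal proteins and late assembly factors, 16 fell and none rose, with a median of -0.68; in either other scaling 16 fell and 1 rose. PDCD2L fell from 18.4 to a mean of 6.93 ± 0.10 FPKM (SD, n = 2), and GRWD1, which binds RPL3, from 53.3 to 22.7 and 24.1 FPKM. Of 74 mitochondrial ribosomal protein genes, 69 fell and 2 rose, with a median of -0.58; with equal-sum scaling 57 fell and 7 rose, and with quantile normalization 60 fell and 4 rose.

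Of 16 regulators of ribosomal protein transcription and translation, 9 fell and 4 rose, with a median of -0.39; with equal-sum scaling 7 fell and 6 rose, and with quantile normalization 9 fell and 5 rose. MYC fell from 362 to 119 and 116 FPKM, a log2 fold change of -1.61. HCFC1, a cofactor of ETS family factors, fell from 28.0 to 15.1 and 15.4 FPKM, and LARP1 had a log2 fold change of -0.72.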

How the data were processed

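Per the file headers, the authors deposited a table of FPKM values for each library. The submitters' processing notes name Cufflinks, Cuffdiff, TopHat and hg19; no version, setting or annotation is stated. FPKM were used as deposited. The 1770 rows without a gene name (21.1% to 22.3% of the sum) and 27 rows named by a number were left out, and rows of one symbol were summed. Genes with at least 1 FPKM in a library (11708) were tested on log2(FPKM + 1), a scale that understates changes of low genes. The test was limma 3.58.1 in R 4.3.3 (eBayes with trend, Benjamini-Hochberg adjustment over all genes tested). It was also run on simulated data. These gave the control the spread of the romidepsin libraries, so that run cannot check this assumption. Pseudogene numbers came from GENCODE 29, and promoter windows from RefSeq by symbol. Python 3.11.15 did the other steps.

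The genes and lists were chosen with earlier results of these data known. Named genes were the 8 highest, the 6 largest falls, the 6 smallest falls or rises, paralogues with their parents, and set roles (stalk, RPL5 and RPL11, RPSA, RPS27A, RPS6, RPS14, RPS19); outside the set, the 2 largest changes per list, the mitochondrial list apart, and MYC. RPS23, RPL13A, RPL23A, RPL36A, LARP1, RPL36AL and VIM were named after their values were seen. Some genes that enter the counts are not reported here by name or drawn singly.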

Additional observations from a re-analysis of the deposited data

How the results depend on the processing

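Alternatives were equal-sum scaling, quantile normalization, centring on the median gene outside the set, a pseudocount of 0.1, no filter, a mean of at least 5 FPKM, limma without the trend, only symbols in 1 row, joined rows added, and leaving out a romidepsin library. As deposited 67 ribosomal protein genes were lower, against 60 with no filter and 63 without the trend. With quantile normalization 35 were lower and 9 higher. RPL39L was the gene called higher as deposited, and 0 were higher with no filter and 0 without the trend. Of all genes, 3069 were lower with equal-sum scaling, 4076 with no filter and 4645 without the trend, against 4896 as deposited. The median of the set was -0.15 in equal-sum scaling, -0.091 under quantile normalization and -0.40 to -0.39 without either romidepsin library. In the test against the typical ribosomal protein gene, 8 were below and 3 above without the trend, 11 above with quantile normalization and 11 above with no filter, against 13 below and 17 above. Adding joined rows enlarged the set from 73 to 84 symbols, of which 77 were lower, so that count is not over the same genes.

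Directions turned with equal-sum scaling for RPS2 (0.0068), RPS12 (0.016), RPS27L (0.032), RPS27 (0.21) and RPS28 (0.17). They turned with quantile normalization for RPL37A (0.089), RPLP1 (0.074), RPS12 (0.20), RPS27 (0.014), RPS27L (0.029), RPLP2 (0.048) and RPS19 (0.053). RPS27 also turned with median centring (0.0038). Leaving out either romidepsin library gave -0.19 to 0.15 for RPS27 and -0.24 to 0.18 for RPS28. The cause was not tested. With 1 library left per group no test was possible, so those settings give values only. No paired analysis was possible because the control has a single library. RPS28 and RPS26 were under 12 FPKM, and the part of depth in their values was not tested.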
